A study of Mus musculus with 20 samples.

Results

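The mitochondrial ribosomal proteins described here are the genes whose symbol begins with Mrpl or Mrps and continues with a number and at most a letter, pseudogenes left out. The rule uses the symbol and no measured value, and 78 of the 46078 genes in the table of liver counts met the rule: 49 with Mrpl symbols, which stand for the large subunit, and 29 with Mrps symbols, which stand for the small subunit. Counts were high enough for a test in 77 of them, and the exception was Mrpl53. Poly(A)-selected mRNA was sequenced from the livers of 20 mice that differed in the gene for cystathionine γ-lyase (Cse, symbol Cth), the enzyme that makes cysteine from cystathionine, and in diet.

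Cse+/- mice, which the sample labels call WT and the study's list of mice calls heterozygous, were on the control diet (n = 2), on a diet without cysteine (no-Cys, n = 4) or on a diet without tryptophan (no-Trp, n = 3). Cse-/- mice got no-Cys (n = 4), no-Trp (n = 3) or no-Trp with added BSO (n = 4), which is l-buthionine sulfoximine, an inhibitor of γ-glutamyl cysteine synthase and so of glutathione synthesis. The knockout was on a 129/C57BL/6 background, mice started the diets at an age of 9 weeks or more, and all diets were made from a defined mix of amino acids. The study describes calorie restriction throughout, with 3 days on the control diet, then the diets above until livers were taken 2 days later. Its RNA sequencing used males only. A control-diet group of Cse-/- livers was not analysed here, so that the effect of the genotype can be read only within the no-Cys and the no-Trp diet. Cth was at 177 ± 103 CPM (counts scaled to library size; mean ± SD, n = 4) in Cse+/- livers on the no-Cys diet and at 8.38 ± 3.28 CPM (n = 4) in Cse-/- livers on that diet, and it was between 6.37 and 14.4 CPM in all Cse-/- livers.

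Mitochondria have a ribosome of their own, which translates the few mRNAs of the mitochondrial genome into core subunits of the respiratory chain. Its rRNAs are transcribed in the mitochondrion, whereas all of its proteins are encoded in the nucleus, made in the cytosol and imported. Most of these proteins have a counterpart in the bacterial ribosome, and others, such as Mrpl38, Mrpl39, Mrpl45, Mrpl54, Mrps31 and Mrps34, occur only in mitochondria.

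The libraries held 11785740 to 57986121 counts on genes, of which the members took 0.221 to 0.335%. Of the liver cell markers, the summed level of 7 hepatocyte genes was 85229 to 110670 CPM in Cse+/- and 38751 to 68436 CPM in Cse-/- livers on the no-Cys diet, and 4 of the 7 were lower in Cse-/- livers. All 5 red cell genes were lower as well, with a sum of 69.1 to 114 CPM against 201 to 406 CPM. None of the 6 Kupffer cell and 4 endothelial genes passed the test in that comparison, 1 of the 4 stellate cell genes and 1 of the 3 tested leukocyte genes were lower, and the summed genes of exocrine pancreas and skeletal muscle were at most 1.90 CPM in any liver. Adipocyte genes summed to 29.99 CPM in a Cse+/- no-Trp liver and to 13.1 CPM in a Cse-/- no-Trp liver. The part of these differences in the results below was not tested, and in whole tissue fewer cells of a type and less RNA per cell cannot be told apart.

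Since the members share a compartment, their promoters were compared. RefSeq promoters of GRCm38.p6, 300 bases long from 250 before to 50 after the transcription start, were found for 69 of the 78 members, and the first entry of each gene was used. GCGCANGCG, the core of a site for NRF1, a regulator of nuclear genes for mitochondria, stood on either strand in 16 of the 69 (23.2%), against 6.47% of the 27025 promoters of all genes and 9.19% of those of protein-coding genes. CCGGAAG, the core of an ETS site such as that of GABPA, stood in 25 (36.2%), against 9.12 and 12.3%. AAGATGGC, the core of a YY1 site, stood in 12 (17.4%), against 2.88 and 3.29%. CCAAT, the NF-Y element, stood in 27 (39.1%), against 37.9 and 38.7%. At least 1 of the first 3 motifs was present in 43 member promoters (62.3%) and in 21.9% of protein-coding promoters, and in no member promoter did matches of different motifs overlap. These are matches of letters and no measure of binding.

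Promoters of 5 members whose mRNA differed between the genotypes on the no-Cys diet are shown, picked after the matches were seen: the 4 of the 15 called members with an entry that hold the NRF1 core, and Mrpl58, which holds only ETS cores. Mrpl24, Mrpl40, Mrps2 and Mrps5 hold none of the motifs, and Mrpl54, Mrpl15 and Mrps34 had no entry. Each is read 5′ to 3′ on the strand of its gene, from 250 bases before the start to 30 bases after it, with the motif matches in capitals. They are Mrps18b (chr17:35916411-35916690, minus strand), Mrpl17 (chr7:105811058-105811337, minus strand), Mrpl58 (chr11:115403502-115403781, plus strand), Mrpl9 (chr3:94443086-94443365, plus strand) and Mrps21 (chr3:95871485-95871764, minus strand), all in GRCm38.p6.
Mrps18b: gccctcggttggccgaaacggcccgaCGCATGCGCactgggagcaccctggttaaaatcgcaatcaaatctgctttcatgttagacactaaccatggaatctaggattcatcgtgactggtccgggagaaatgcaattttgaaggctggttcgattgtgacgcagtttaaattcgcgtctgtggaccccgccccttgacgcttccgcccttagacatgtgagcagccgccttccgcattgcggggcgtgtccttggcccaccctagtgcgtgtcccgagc
Mrpl17: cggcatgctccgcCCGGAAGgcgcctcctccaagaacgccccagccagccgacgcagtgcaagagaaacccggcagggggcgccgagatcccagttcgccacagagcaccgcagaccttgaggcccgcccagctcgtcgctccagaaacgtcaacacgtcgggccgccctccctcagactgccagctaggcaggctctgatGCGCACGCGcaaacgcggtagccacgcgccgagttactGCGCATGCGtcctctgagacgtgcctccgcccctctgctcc
Mrpl58: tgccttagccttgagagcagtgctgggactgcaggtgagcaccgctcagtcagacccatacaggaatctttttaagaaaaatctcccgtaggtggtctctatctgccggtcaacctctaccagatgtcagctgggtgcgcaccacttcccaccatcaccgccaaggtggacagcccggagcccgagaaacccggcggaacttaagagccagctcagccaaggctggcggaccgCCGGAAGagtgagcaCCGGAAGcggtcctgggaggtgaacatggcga
Mrpl9: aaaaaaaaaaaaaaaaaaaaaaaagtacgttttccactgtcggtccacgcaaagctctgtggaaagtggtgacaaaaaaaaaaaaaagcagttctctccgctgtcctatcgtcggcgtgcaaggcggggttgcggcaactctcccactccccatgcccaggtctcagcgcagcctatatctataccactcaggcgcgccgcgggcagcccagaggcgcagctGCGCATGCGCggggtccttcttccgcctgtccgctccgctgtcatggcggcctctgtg
Mrps21: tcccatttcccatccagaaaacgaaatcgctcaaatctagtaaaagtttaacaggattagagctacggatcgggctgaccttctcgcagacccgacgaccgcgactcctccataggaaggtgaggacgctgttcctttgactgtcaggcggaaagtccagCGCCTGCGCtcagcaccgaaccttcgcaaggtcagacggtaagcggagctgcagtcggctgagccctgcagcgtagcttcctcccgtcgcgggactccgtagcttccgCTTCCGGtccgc
In Mrpl17 the NRF1 core began 49 and again 11 bases before the start, and an ETS core 237 bases before it. In Mrpl9 the NRF1 letters matched on both strands over the same bases, from 28 bases before the start, and in Mrps18b the match began 224 bases before it, with an ETS core beyond the printed bases. Mrpl58 had ETS cores 17 and 2 bases before the start. Among the members called higher on the no-Cys diet, 2 of 12 with a promoter entry held the NRF1 core and 5 of 12 the ETS core, and among those called lower 2 of 3 held each. NRF1 core letters were found in promoters of members that differed in either direction.

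The members lay on 17 chromosomes, with 11 on chromosome 11 and 8 on chromosome 17. Many stood head to head with another gene: 19 of 78 (24.4%) had the start of a protein-coding gene of the other strand within 1000 bases upstream or 100 downstream of their own start in GENCODE models of GRCm38, against 7.23% of 21938 protein-coding genes. Mrpl54 and Apba3 started 26 bases apart, Mrps34 and Eme2 29, and Mrps18b and Ppp1r10, which encodes a regulator of protein phosphatase, 45.

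Levels can be compared between genes only per length, as CPM per kb of exon. Over the 6 groups, Mrpl34 was the highest member, with a mean of 74.5 CPM per kb (group means 61.6 to 85.7), followed by Mrps21 with 68.0 (52.8 to 78.9) and Mrpl14 with 56.7 (49.5 to 66.5). The ranges of these 3 overlap. At the low end were Mrps25 with 2.39 CPM per kb (1.96 to 2.61), Mrpl33 with 1.83 (1.58 to 2.104) and Mrpl53 with 0.0374. Mrpl34 stood 40.7-fold above Mrpl33, the lowest tested member. Exons of all annotated isoforms enter the length, and the counting left out reads that fall on more than 1 gene. Mrpl53 had 13 counts in all 20 livers, and 88.0% of its exon bases are shared with other genes. Exon bases were shared with other genes by 69.8% in Mrps25, 77.8% in Mrps34, 33.4% in Mrpl43 (with Twnk), 30.5% in Mrps18b (with an antisense gene) and 26.3% in Mrpl24, and by at least 10% in 18 members in all. The levels of these genes are therefore uncertain, and since the kit does not mark strand, reads of antisense partners cannot be told apart.

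The first comparison asks how the livers of mice that can and cannot make cysteine differed when the diet held none. On the no-Cys diet, 15 of the 77 members (19.5%) were higher in Cse-/- than in Cse+/- livers, beside 11.6% of all 14759 genes tested, and 3 (3.9%) were lower, beside 12.2% (edgeR quasi-likelihood test, Benjamini-Hochberg adjusted p under 0.05, which is what called means below). The differences were small. The median log2 fold change of the members was 0.12, against -0.01 for all genes, 58 were positive and 19 negative, and the median size without sign was 0.18, less than the 0.26 of all genes. All genes were not matched to the members by level, on which the noise of a fold depends. DESeq2 called 16 higher and 3 lower, with 18 called by both. Of the 18, 9 kept the call whichever of the 8 libraries was left out: Mrps18b, Mrpl54, Mrpl17, Mrpl15, Mrpl24, Mrpl58, Mrps5, Mrps31 and Mrpl9. Each of the other 9 calls was lost without at least 1 library, and the number of calls lay between 13 (without av01) and 24 (without av04).

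**Figure D1:**
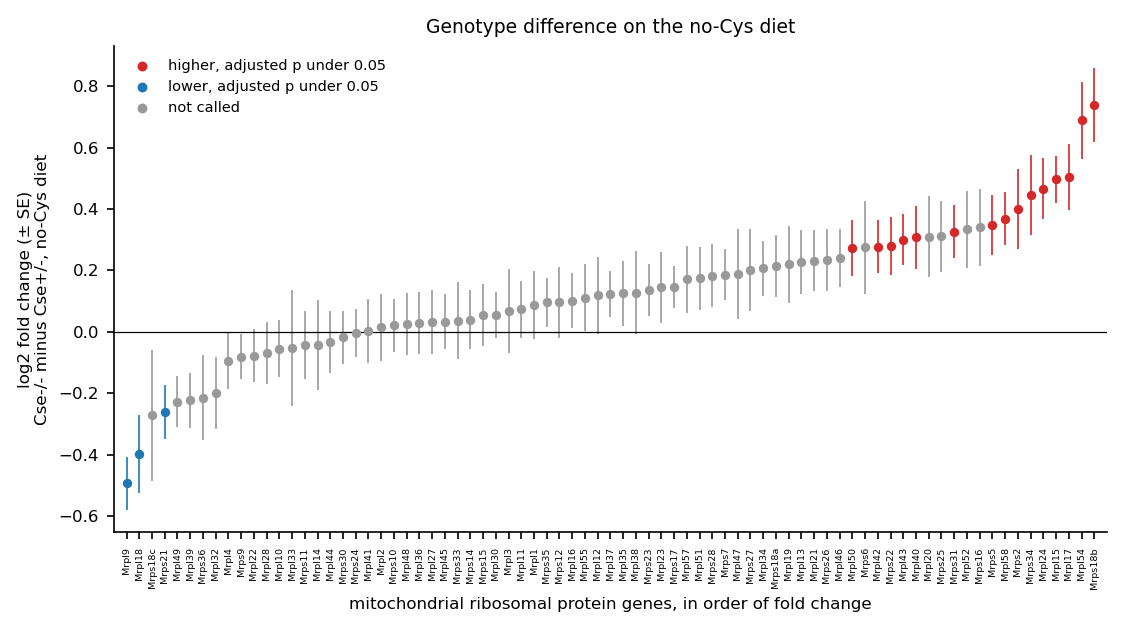
Log2 fold change (± SE) of the 77 tested members on the no-Cys diet, Cse-/- minus Cse+/- livers (n = 4 each), in order of size. The 15 members called higher (red) reach 0.74 in Mrps18b, and the 3 called lower (blue) reach -0.49 in Mrpl9.

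Mrps18b, 1 of 3 paralogs of a small-subunit protein, differed most. Its level in the 4 Cse-/- livers was 15.8, 17.5, 17.6 and 20.7 CPM, and in the 4 Cse+/- livers 9.82, 10.6, 10.7 and 11.7 CPM. The groups did not overlap, and the log2 fold change was 0.74 (SE 0.12, edgeR adjusted p = 2.5e-04). Its paralogs were not called: Mrps18a was at 35.5 ± 2.55 against 30.6 ± 4.47 CPM (log2 fold change 0.21, edgeR adjusted p = 0.137), and Mrps18c at 7.85 ± 1.71 against 9.44 ± 3.28 CPM (-0.27, edgeR adjusted p = 0.380), both with n = 4 a group. Leaving out a library moved Mrps18a between 0.12 (without av01) and 0.28 (without av04). The value of Mrps18c rested on the Cse+/- library av04, without which it was -0.0091. In assembled mitoribosomes Mrps18a, despite its name, sits in the large subunit.

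Large-subunit members made up the rest of the top of the order. Mrpl54 was at 34.8, 38.0, 44.4 and 46.4 CPM in Cse-/- livers and at 21.8, 22.7, 24.9 and 32.1 CPM in Cse+/- livers, a log2 fold change of 0.69 (SE 0.13, edgeR adjusted p = 6.2e-04). Mrpl17, the counterpart of a bacterial protein near the exit of the peptide tunnel, was at 97.0, 99.2, 105 and 108 CPM against 63.4, 67.7, 75.3 and 81.9 CPM (0.50, SE 0.11, edgeR adjusted p = 0.0022). In neither did the groups overlap.

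Mrpl15 was at 83.6, 89.4, 92.2 and 96.1 CPM in Cse-/- livers and at 60.2, 60.9, 62.1 and 72.9 CPM in Cse+/- livers (log2 fold change 0.50, SE 0.08, edgeR adjusted p = 1.7e-04). Again the groups stood apart. Mrpl24, another protein near the tunnel exit, was at 51.9, 62.4, 67.2 and 72.6 CPM against 39.7, 43.8, 48.0 and 52.3 CPM (0.47, SE 0.10, edgeR adjusted p = 0.0024), and here the lowest Cse-/- liver lay just below the highest Cse+/- liver.

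The 3 members called lower were Mrpl9, Mrpl18 and Mrps21, each the counterpart of a bacterial ribosomal protein. Mrpl9 was at 45.9, 47.6, 47.6 and 47.9 CPM in Cse-/- livers and at 57.1, 67.8, 69.1 and 72.0 CPM in Cse+/- livers, with no overlap and a narrow spread in the former (log2 fold change -0.49, SE 0.09, edgeR adjusted p = 5.1e-04). Mrpl18 was at 35.4, 38.5, 48.8 and 52.3 CPM against 50.2, 52.1, 59.6 and 68.8 CPM (-0.40, SE 0.13, edgeR adjusted p = 0.0288). Mrps21 was at 37.1, 38.4, 39.2 and 41.5 CPM against 40.7, 43.7, 48.2 and 54.4 CPM (-0.26, SE 0.09, edgeR adjusted p = 0.0378). In the last of these pairs the groups overlapped, as they did for Mrpl18, and both calls were lost without some libraries: with the Cse+/- library av04 left out, the log2 fold change was -0.18 for Mrps21, and with the Cse-/- library av05 left out it was -0.30 for Mrpl18.

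**Figure D2:**
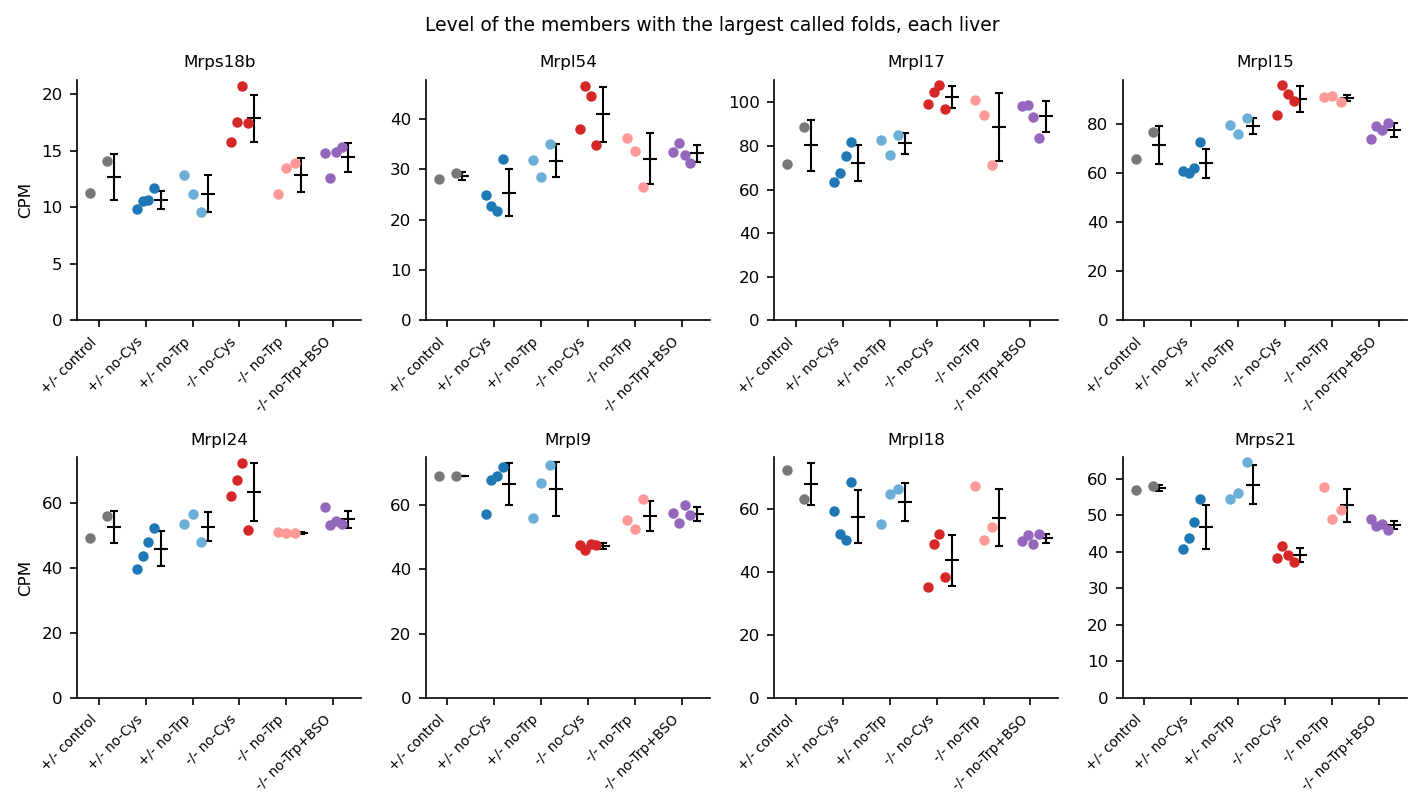
CPM of 8 members in each liver (points), with the mean and SD of each group to the right, for the Cse+/- (control, no-Cys, no-Trp) and Cse-/- (no-Cys, no-Trp, no-Trp + BSO) groups. Mrps18b is at 15.8 to 20.7 CPM in the Cse-/- no-Cys livers and at 9.62 to 15.4 CPM in all others, and Mrpl9 is lowest in the Cse-/- no-Cys livers.

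The other 10 members called higher had log2 fold changes from 0.27 (Mrpl50) to 0.45 (Mrps34). They included Mrpl58, a peptidyl-tRNA hydrolase built into the large subunit, at 41.7 ± 3.98 against 32.3 ± 3.72 CPM (n = 4 each, 0.37, SE 0.09, edgeR adjusted p = 0.0042). Small-subunit members among them were Mrps34 (0.45), Mrps2 (0.40), Mrps5 (0.35), Mrps31 (0.33) and Mrps22 (0.28), and large-subunit members were also Mrpl40 (0.31), Mrpl43 (0.30) and Mrpl42 (0.28). By symbol, 9 of 48 tested Mrpl members and 6 of 29 Mrps members were called higher, 2 and 1 were called lower, and the medians were 0.12 and 0.15.

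Of 10 members named for their role or place in the ribosome, Mrps18b and Mrpl58 were called higher, as given above, and the other 8 were not called. Mrpl12, a protein of the ribosome stalk that also binds the mitochondrial RNA polymerase, was at 81.4 ± 11.9 CPM in Cse-/- and 74.95 ± 15.8 CPM in Cse+/- livers (n = 4 each, log2 fold change 0.12, edgeR adjusted p = 0.524). Without the Cse+/- library av04 the value of Mrpl12 was 0.28 (edgeR adjusted p = 0.0755). Its stalk neighbour Mrpl11 was at 31.9 ± 3.08 and 30.3 ± 3.17 CPM (0.07, edgeR adjusted p = 0.602), Mrps12 of the decoding centre at 47.9 ± 6.16 and 44.8 ± 5.54 CPM (0.10, edgeR adjusted p = 0.588). Leaving out a library moved Mrpl11 between 0.02 and 0.15 and Mrps12 between 0.01 and 0.17, and neither was called in any of these fits. Mrps30, which is found in the large subunit despite its name, was at 16.1 ± 0.65 and 16.3 ± 0.78 CPM (-0.02, edgeR adjusted p = 0.905). Mrpl41, linked to cell death, was at 27.1 ± 2.14 and 27.0 ± 3.27 CPM (0.0031, edgeR adjusted p = 0.988), and the sign of this value turned with the scaling. Mrps36, now known as a subunit of the α-ketoglutarate dehydrogenase complex, was at 8.47 ± 1.68 and 9.79 ± 0.48 CPM (-0.21, edgeR adjusted p = 0.277), with values from -0.36 (without av08) to -0.13 (without av05).

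Within Cse-/- mice, the no-Cys diet was compared with the no-Trp diet, which lacks another amino acid. Here 3 members were higher on the no-Cys diet, beside 5.05% of all genes, and 3 were lower, beside 5.35% of all genes, and the median log2 fold change was -0.01. The shares of members were 3.9% in either direction. DESeq2 called 4 higher and 4 lower, whereas a fit of only these groups called Mrps21 alone (edgeR adjusted p = 0.0385) and gave the other 5 an adjusted p of 0.0744 to 0.101. Mrps34 was at 21.8, 22.7, 22.7 and 23.9 CPM on the no-Cys diet and at 12, 17.2 and 19.5 CPM on the no-Trp diet (0.49, SE 0.14, edgeR adjusted p = 0.0293), and without the no-Trp library av14 the value was 0.32. Mrps18b, at the no-Cys levels given above, was at 11.2, 13.5 and 13.96 CPM on the no-Trp diet (0.47, SE 0.13, edgeR adjusted p = 0.0232), and Mrps31 was at 37.0, 40.3, 41.9 and 43.6 CPM against 30.4, 32.1 and 34.1 CPM (0.34, SE 0.09, edgeR adjusted p = 0.0263). The groups stood apart in all 3.

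Lower on the no-Cys than on the no-Trp diet were Mrps21, Mrpl45 and Mrpl39. Mrps21 was at 48.8, 51.5 and 57.6 CPM on the no-Trp diet, above all no-Cys livers (-0.43, SE 0.09, edgeR adjusted p = 0.0074). Mrpl45, which faces the inner membrane at the tunnel exit, was at 26.4, 27.6, 28.0 and 29.0 CPM on the no-Cys diet and 33.0, 33.2 and 42.3 CPM on the no-Trp diet (-0.38, SE 0.09, edgeR adjusted p = 0.0156). Mrpl39 was at 29.9, 33.6, 36.4 and 36.4 CPM against 41.1, 42.3 and 43.7 CPM (-0.31, SE 0.09, edgeR adjusted p = 0.0380). None of these 6 calls held in all 7 fits that left out a library, and the number of calls went from 2 without the Cse-/- no-Trp library av14 to 9 without the Cse-/- no-Cys library av08.

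The other 5 comparisons of 2 groups gave no called member with edgeR. The shares of all genes given below are edgeR calls, and no such share was taken for unadjusted p or DESeq2. For Cse-/- mice on the no-Trp diet with against without BSO, 0 of 77 were called (by unadjusted p under 0.05, 0 higher and 2 lower, and 0 with DESeq2), beside 0.793% of all genes, and the median log2 fold change was -0.02. The largest differences were 0.25 for Mrpl14 and -0.31 for Mrpl38 (edgeR adjusted p = 0.526 and 0.361). For the no-Cys diet against no-Trp with BSO, both in Cse-/- mice, 0 were called (8 higher and 6 lower unadjusted, 2 higher with DESeq2), beside 2.75%, and the median was 0.02. Mrps34 was at 22.8 ± 0.87 CPM against 17.1 ± 0.59 CPM (n = 4 each, 0.41, SE 0.13, edgeR adjusted p = 0.0812), and Mrpl14 at 46.9 ± 4.604 against 63.1 ± 3.98 CPM (-0.43, SE 0.15, edgeR adjusted p = 0.109).

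Between the genotypes on the no-Trp diet, 0 members were called with edgeR (7 higher and 1 lower unadjusted, 1 higher and 1 lower with DESeq2), beside 2.64% of all genes, with a median of 0.06. Mrps5 had the largest positive value (0.37, SE 0.11, edgeR adjusted p = 0.0788). In Cse+/- mice, 0 were called for the no-Cys against the control diet (1 higher and 4 lower unadjusted, 0 with DESeq2), beside 2.18%, with a median of -0.10. For the no-Trp against the control diet 0 were called (3 higher and 2 lower unadjusted, 0 with DESeq2), beside 0.0474%, with a median of 0.01. The largest positive value on the no-Cys diet was 0.29 in Mrps34, and the largest negative value on the no-Trp diet was -0.34 in Mrps2. Only 2 control livers stood behind these last comparisons.

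Mrpl38 had the largest negative value in 3 of the comparisons without a call and the largest positive value in the no-Trp against control comparison. It was at 90.9 and 91.4 CPM in the Cse+/- control livers, at 123, 132 and 167 CPM on the no-Trp diet, and at 58.2, 68.2, 71.7 and 77.1 CPM on the no-Cys diet. The Cse-/- livers were at 67.5, 100 and 118 CPM on the no-Trp diet and at 67.8, 74.9, 78.5 and 79.6 CPM without cysteine. The spread within a genotype was wider on the no-Trp than on the no-Cys diet. Its log2 fold changes were 0.63 for the Cse+/- no-Trp against the control diet (edgeR adjusted p = 0.255), -0.57 for the genotypes on the no-Trp diet (edgeR adjusted p = 0.0566) and -0.41 for the Cse+/- no-Cys against the control diet (edgeR adjusted p = 0.211).

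Whether the genotype difference itself differed between the no-Cys and no-Trp diets was tested as an interaction. Only Mrpl54 was called among the members with edgeR, with a difference of 0.67 between the log2 fold changes (SE 0.19, adjusted p = 0.0483), beside 4.36% of all genes, and DESeq2 called 3 members higher and 1 lower. Its genotype difference was 0.69 on the no-Cys diet and 0.02 on the no-Trp diet, where the Cse-/- livers were at 26.5, 33.5 and 36.3 CPM and the Cse+/- livers at 28.5, 31.8 and 34.9 CPM. The call of Mrpl54 was lost in 10 of the 14 fits that left out a library, with a difference of 0.55 to 0.81 and an edgeR adjusted p of 0.013 to 0.123 over the 14, and was kept only without av04, av08, av14 or av19. It was also lost with upper-quartile factors and when only the groups compared were fitted (edgeR adjusted p = 0.062 and 0.111). The largest positive interaction was that of Mrpl38 (0.69, SE 0.21, edgeR adjusted p = 0.0607), which was not called, and the largest negative interaction was that of Mrpl49 (-0.43, SE 0.13, edgeR adjusted p = 0.0543).

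Several comparisons share libraries, so that the values of the 18 members called on the no-Cys diet are set side by side rather than counted as repeats. In the Cse+/- no-Cys against control comparison, Mrps18b was at -0.24, Mrpl54 at -0.18 and Mrpl24 at -0.20, and none of these was called. Of the members called higher by genotype, only Mrps34 (0.29), Mrpl50 (0.12) and Mrps22 (0.05) were positive there, also without a call. Mrpl15 was 0.50 higher by genotype on the no-Cys diet and -0.005 between no-Cys and no-Trp in Cse-/- mice, and its 3 Cse-/- no-Trp livers (89.2, 91.0 and 91.7 CPM) lay within the range of the no-Cys livers. Mrps5 had like values between the genotypes on the no-Cys (0.35, called) and the no-Trp diet (0.37, not called).

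**Figure D3:**
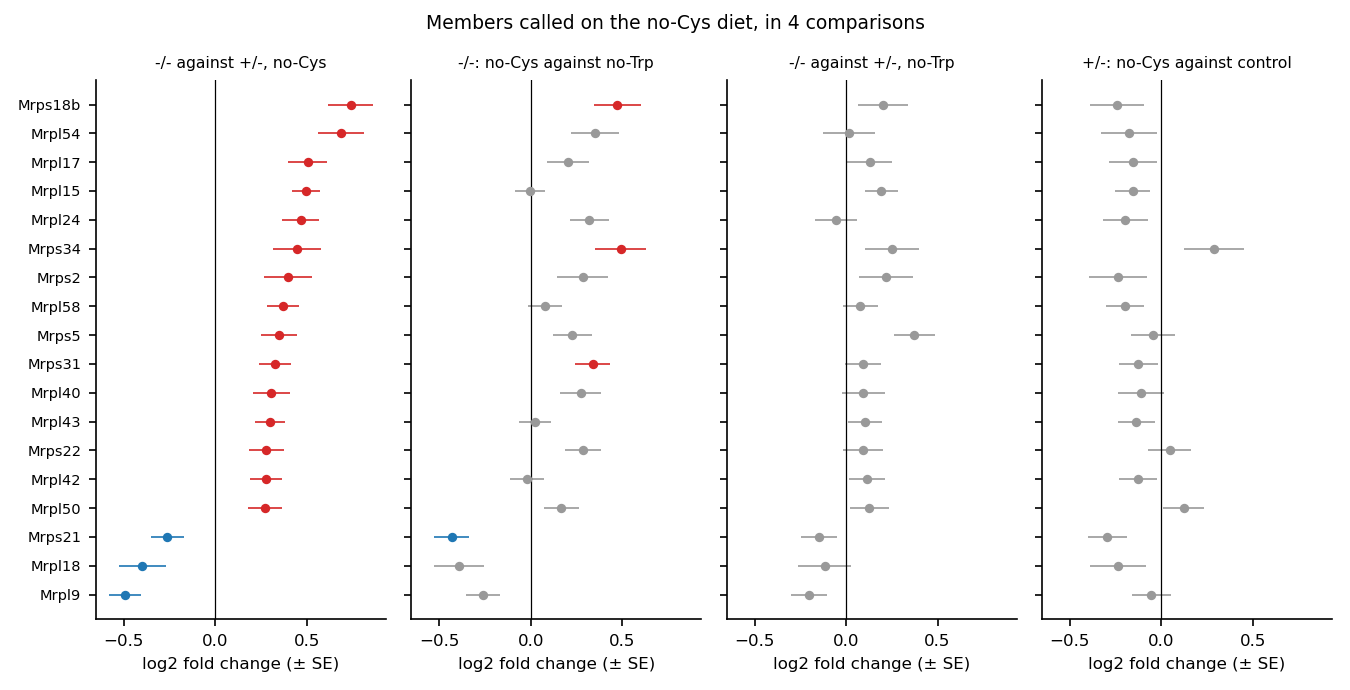
Log2 fold change (± SE) of the 18 members called on the no-Cys diet, in 4 comparisons that share libraries. Red and blue mark members called higher and lower in that comparison, grey those not called, and only Mrps18b, Mrps34, Mrps31 and Mrps21 are coloured in the first and second panels.

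As a group the members differed little between livers. The median over members of the log2 difference from the Cse+/- control livers was -0.08 ± 0.13 (SD, n = 4, from -0.23 to 0.09) in Cse+/- no-Cys livers and 0.06 ± 0.09 (n = 4, from -0.03 to 0.16) in Cse-/- no-Cys livers. It was 0.01 ± 0.04 (n = 3) in Cse+/- no-Trp, 0.06 ± 0.07 (n = 3) in Cse-/- no-Trp and 0.02 ± 0.04 (n = 4) in Cse-/- no-Trp + BSO livers. All groups overlapped. The lowest value was that of the Cse+/- no-Cys library av01, which was the shallowest of all, and without it the median log2 fold change between the genotypes on the no-Cys diet was 0.07 in place of 0.12.

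**Figure D4:**
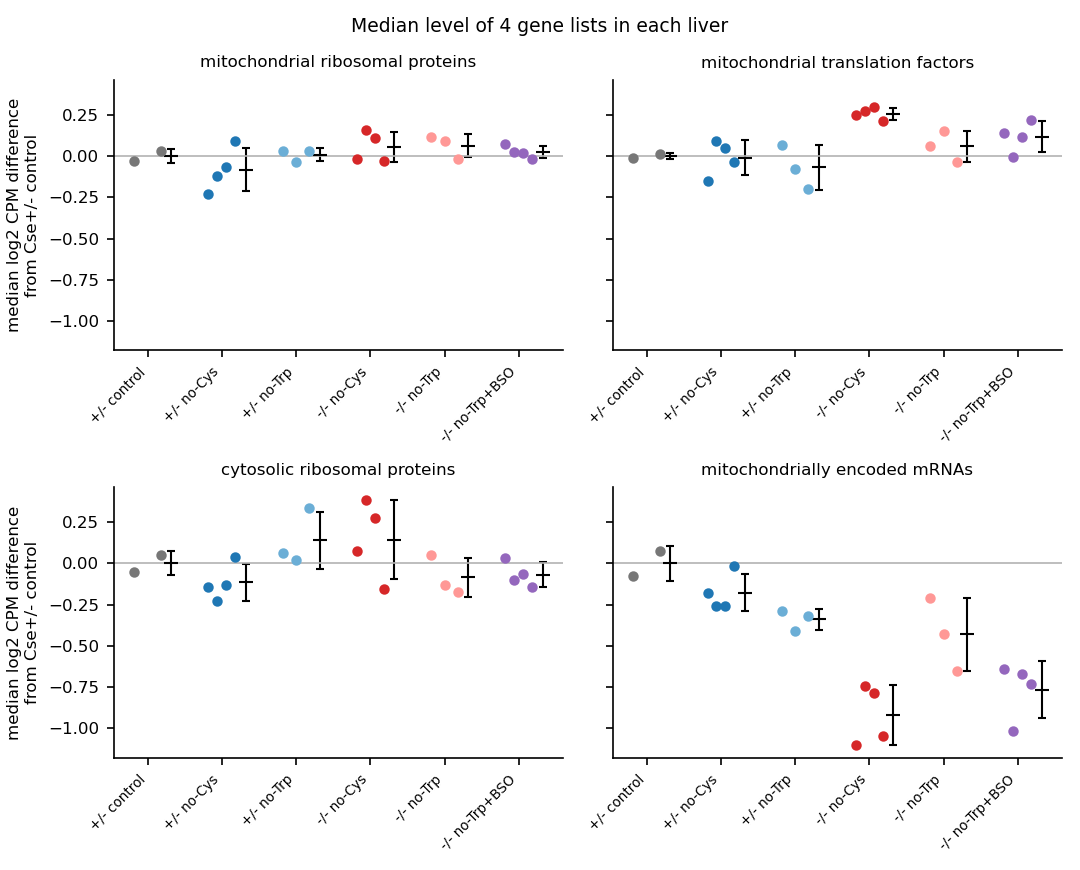
Median over the genes of a list of the log2 CPM difference from the mean of the Cse+/- control livers, for each liver (points) with the mean and SD of each group. Mitochondrial ribosomal proteins lie between -0.23 and 0.16 in all livers, and mitochondrially encoded mRNAs reach -1.10 in Cse-/- no-Cys livers.

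The members' partners in mitochondrial gene expression were read from lists chosen by name, whose counts on the no-Cys diet stand beside the 11.6% (higher) and 12.2% (lower) of all tested genes. Here 8 of 26 genes for mitoribosome assembly and rRNA modification were higher in Cse-/- livers (30.8%) and 1 was lower (3.85%). The median of the list was 0.18 on the log2 scale. Tfb1m, which dimethylates the small-subunit rRNA, was at 11.5 CPM against 6.07 CPM (0.91, SE 0.18, edgeR adjusted p = 0.0011), and Nsun4, another rRNA methyltransferase, at 14.3 against 20.5 CPM (-0.52, SE 0.08, edgeR adjusted p = 1.5e-04). Of 15 tested translation factors, 5 were higher (33.3%) and none lower (median 0.31), led by Gfm2, a factor for ribosome recycling, at 52.0 against 36.1 CPM (0.53, SE 0.10, edgeR adjusted p = 8.1e-04). In each liver of the Cse-/- no-Cys group the translation factors' median lay 0.21 to 0.30 above the control livers, whereas in Cse+/- no-Cys livers it was -0.15 to 0.09.

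Of 17 mitochondrial aminoacyl-tRNA synthetases, which charge the tRNAs of the organelle, 5 were higher (29.4%) and 1 lower (5.88%, median 0.33). Ears2, for glutamate, was at 18.2 against 11.3 CPM (0.69, SE 0.14, edgeR adjusted p = 0.0017), and Fars2, for phenylalanine, at 27.2 against 34.8 CPM (-0.35, SE 0.09, edgeR adjusted p = 0.0076). Of 9 genes for mitochondrial transcription and DNA maintenance only the helicase Twnk was called (0.70, SE 0.13, edgeR adjusted p = 6.0e-04), which shares exon bases with Mrpl43. Of 9 regulators of nuclear mitochondrial genes, Nrf1, Gabpa and Yy1 among them, 0 were called by edgeR (median 0.06), and of 5 further mitoribosome proteins, such as Dap3, also 0 (median 0.09). At an unadjusted p under 0.05 and with DESeq2, too, 0 genes of either list were counted in this comparison.

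The mRNAs that the mitoribosome translates were lower. Of 11 tested mitochondrially encoded mRNAs, 9 were lower in Cse-/- livers (81.8%) and none higher (median -0.70), beside the 12.2% of all genes lower. mt-Nd2, a subunit of complex I, was at 3715 against 7001 CPM (-0.91, SE 0.09, edgeR adjusted p = 2.8e-06), and the largest fold was that of mt-Co3, at 4.48 against 16.7 CPM (-1.91, SE 0.43, edgeR adjusted p = 0.0030). Few reads were counted for mt-Co3, and its SE stood above the median SE of the list, 0.13, so that its fold is uncertain. Of 77 genes listed as nuclear-encoded subunits of the respiratory complexes, 2 were higher (2.6%) and 18 lower (23.4%, median -0.16), from Ndufa1 at 62.3 against 94.9 CPM (-0.61, SE 0.14, edgeR adjusted p = 0.0033) to Atp5s at 10.1 against 6.82 CPM (0.58, SE 0.19, edgeR adjusted p = 0.0347). The list was drawn by symbol, which does not show that each gene, such as Atp5s, encodes a subunit. In single livers its median was -0.38 to -0.28 in the Cse-/- no-Cys group. In Cse+/- no-Cys livers this median was -0.26, -0.24, -0.19 and, in av04, 0.07. Of 78 tested cytosolic ribosomal proteins, 27 were higher (34.6%, beside 11.6% of all genes) and none lower (median 0.29), with Rpl3 the largest of those called, at 322 against 190 CPM (0.76, SE 0.12, edgeR adjusted p = 1.6e-04). The median of this list in single livers overlapped between the genotypes, from -0.16 (av08) to 0.39 in Cse-/- and from -0.23 to 0.04 in Cse+/- no-Cys livers. The differences between the lists were not tested.

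**Figure D5:**
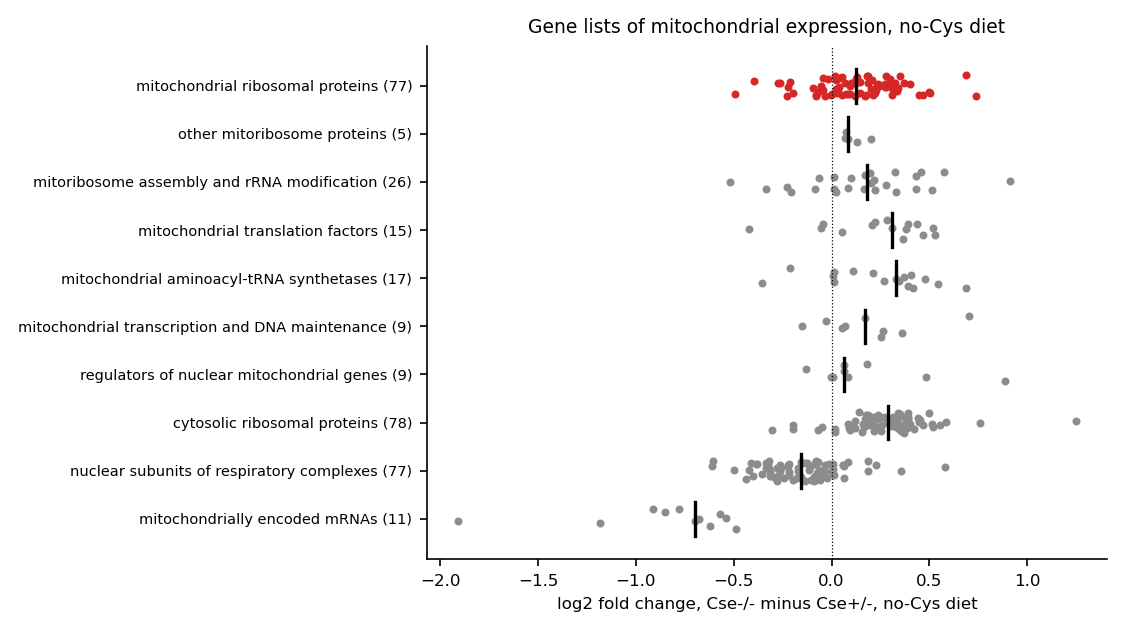
Log2 fold change of each tested gene (points) and median (bars) of 10 gene lists on the no-Cys diet, Cse-/- minus Cse+/- livers, with the number of genes tested in brackets. The median is 0.12 for the mitochondrial ribosomal proteins, 0.29 for the cytosolic ribosomal proteins and -0.70 for the mitochondrially encoded mRNAs.

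In Cse-/- mice, the no-Cys against no-Trp comparison gave a median of -0.01 for the members, 0.04 for the assembly and rRNA modification genes (1 of 26 higher, 2 lower), 0.15 for the translation factors (1 of 15 higher, none lower), 0.21 for the aminoacyl-tRNA synthetases (3 of 17 higher, none lower), 0.23 for the cytosolic ribosomal proteins (9 of 78 higher, none lower), -0.23 for the nuclear respiratory subunits (22 of 77 lower, none higher) and -0.47 for the mitochondrially encoded mRNAs (4 of 11 lower, none higher). Of all genes tested, 5.05% were higher and 5.35% lower. All these levels are of poly(A)-selected RNA.

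The genes that face the members head to head were looked up after the members' values were seen. Of the 18 that were tested on the no-Cys diet, 8 were higher and 3 lower in Cse-/- livers, beside the 11.6 and 12.2% of all genes. Of the 6 members called higher that had a tested partner, 3 had a partner called higher as well: Mrpl54 (0.69) with Apba3 (0.68, SE 0.10, edgeR adjusted p = 6.3e-05), an adaptor protein of amyloid precursor protein, Mrps34 (0.45) with Eme2 (0.81, SE 0.24, edgeR adjusted p = 0.0185), a subunit of a DNA endonuclease, and Mrps5 (0.35) with the zinc-finger gene Zfp661 (0.77, SE 0.18, edgeR adjusted p = 0.0038). The partners of the other 3 had negative values and were not called: Ppp1r10 beside Mrps18b (-0.71, SE 0.27, edgeR adjusted p = 0.0599), Hira beside Mrpl40 (-0.19, edgeR adjusted p = 0.528) and Zfp189 beside Mrpl50 (-0.18, edgeR adjusted p = 0.437). No exon base of Mrpl54 or Mrps5 is shared with another gene.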

How the data were processed

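Per the labels, liver mRNA was poly(A)-selected and made into libraries with an NEBNext Ultra kit, which does not mark strand. The authors aligned the reads with HISAT2 2.1.0 to GRCm38 and counted them per gene with HTSeq 0.11.0, and the deposited values are raw counts per gene. Of 21 columns, 20 were assigned to groups, not to single samples, by the study's list of mice, and 1 was not used. Identifiers were paired with symbols for 45143 of 46078 genes. Counts were filtered with filterByExpr (minimum count 10), scaled with TMM and tested in 1 fit over the 6 groups with edgeR 4.0.16 (quasi-likelihood, limma 3.58.1, R 4.3.3), with Benjamini-Hochberg adjustment over 14759 genes. CPM values use the TMM-scaled library sizes. Each library is a different mouse, so that p-values measure the spread between these mice. In 25 pairs of libraries of a group the chi-square per gene was 9.60 to 64.2, so within a group no library was a copy of another. Alternatives were RLE and upper-quartile factors, no filter, DESeq2 1.42.0, a fit of only the groups compared, and leaving out each library. Named members were up to 5 called in each direction with the largest folds, or the extreme value where none was called, the 3 highest and 3 lowest per length, and 10 members by role. The other members called on the no-Cys diet, the members with shared exons and the Mrpl38 levels were named after their values were seen. The members, the lists and the head-to-head genes were chosen with earlier results of these data known, and pseudogenes were left out of the list of respiratory subunits. Annotation, lengths and promoters are of GRCm38, read with Python 3.11.15.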

Additional observations from a re-analysis of the deposited data

Results flagged for a closer look

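Among 72 groups of 4 values, 3 held a liver that stood far from the other 3, about as many as chance gives at 1 in 20. Mrpl12 was at 98.5 CPM in the Cse+/- no-Cys library av04, against 65.3 to 69.6 CPM in the others of the group. Mrpl15 was at 72.9 CPM in the same library, against 60.2 to 62.1 CPM, and remained below all Cse-/- no-Cys livers. Mrpl9 was at 45.9 CPM in the Cse-/- no-Cys library av06, against 47.6 to 47.9 CPM, a narrow range. The genotype difference of Mrpl54 was 0.67 larger on the no-Cys than on the no-Trp diet on the log2 scale (edgeR adjusted p = 0.0483), a call that was lost in 10 of 14 fits without a library, with upper-quartile factors and in the fit of only the groups compared.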

How the results depend on the processing

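No paired analysis was possible because the columns of the count table carry no replicate numbers. On the no-Cys diet, the genotypes differed in 12 to 19 members under the other scalings, filter, tool and fit, and in 13 to 24 with a library left out. Between no-Cys and no-Trp in Cse-/- mice, 1 member was called when only the groups compared were fitted, and 2 to 9 with a library left out (3 without av05). Between no-Cys and no-Trp with BSO, DESeq2 called 2, the fit of only the groups compared 3, and fits without a library 0 to 2. Between the genotypes on the no-Trp diet, upper-quartile factors called 1, no filter 1, DESeq2 2, and fits without a library 0 to 1. For the interaction, upper-quartile factors called 0, no filter 2, DESeq2 4, the fit of only the groups compared 0, and fits without a library 0 to 4. Mrpl41 on the no-Cys diet was at -0.013 with upper-quartile factors, at -0.00042 in the fit of only the groups compared, and from -0.0767 to 0.0569 without a library, and Mrps30 was at -0.0478 to 0.0091. Without a library, the median of the members lay between 0.0031 (without av14) and 0.079 for the genotypes on the no-Trp diet, between -0.155 (without av04) and -0.032 (without av22) for no-Cys against control in Cse+/- mice, between -0.081 (without av16) and -0.0016 (without av14) for BSO, between 0.0027 (without av07) and 0.04 (without av09) for no-Cys against no-Trp with BSO, between 0.021 (without av01) and 0.146 (without av14) for the interaction, and on both sides of 0 for no-Cys against no-Trp and for no-Trp against control. The causes were not tested. The 2 control livers limit the comparisons with them. Mrpl53, with 13 counts in all, was not tested.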
